A study of Mus musculus with 6 samples.

Results

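The nitric oxide and cyclic GMP axis was followed through 10 genes, chosen by symbol out of the 53647 genes counted, in single cells of the mouse proximal pulmonary artery (PA). The members were Nos3, Ddah1, Ddah2, Gucy1a1, Gucy1b1, Npr1, Npr3, Prkg1, Pde5a and Pde3a, and all 10 were found. The mice were of the C57BL/6J strain, wild type and without any treatment in the labels. The young group held 2 libraries of 3 months, 3m and f3m, and the old group held 4, 20m, 24m, f28m and m27mo, of 20, 24, 28 and 27 months. Libraries with an f in the name came from females, and by the study's account the others came from males. By the study's account each library came from 1 mouse, and p-values measure the spread between these libraries. Another young library that the study had was not used here.

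Nitric oxide is made in endothelial cells (ECs) by endothelial nitric oxide synthase, the product of Nos3, and diffuses into the neighbouring smooth muscle cells (SMCs). There it binds soluble guanylate cyclase, a dimer of an alpha and a beta subunit encoded by Gucy1a1 and Gucy1b1, which turns GTP into cyclic GMP. Cyclic GMP activates the kinase encoded by Prkg1, whose targets lower cell calcium and relax the muscle, and phosphodiesterases such as Pde5a end the signal. Natriuretic peptides reach the same second messenger through the receptor Npr1, while Npr3 mainly clears them. In the lung this pathway keeps vascular tone low, and inhibitors of the Pde5a enzyme and stimulators of soluble guanylate cyclase are used in pulmonary hypertension.

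The 15622 barcodes kept had 500 or more unique molecular identifiers (UMIs, each standing for 1 RNA molecule) from 300 or more genes, with no more than 20% of UMIs mitochondrial. Library totals ran from 6355125 to 50436562 UMIs. The axis was measured in 1972 ECs, 3310 SMCs and 1690 fibroblasts (FBs). The 3m and f3m libraries gave 87 and 59 ECs but only 19 and 29 SMCs, and 24m gave 1 SMC and was left out of that type. The types were named by 10 markers each, so the levels of these markers describe the types and do not test them. Ranges over the libraries are given in CPM, the UMIs per 1000000 UMIs of the same cells. In their own type EC markers stood at 7725 to 14126, SMC markers at 31249 to 57825 and FB markers at 29105 to 41478 CPM. The libraries 3m, f3m and 24m shared from 131 to 215 cell barcodes pairwise, where 0.375 to 1.15 were expected by chance. Cells with a barcode shared with another library were mostly airway epithelial (137 in 3m, 218 in f3m and 202 in 24m). Among them were 2, 2 and 3 ECs and 0, 0 and 0 SMCs in the same order. These libraries also had the shallowest ECs, with medians of 624 to 651 UMIs against 1918 to 3220 in the other 3. The 20m library held counts of both Xist (3113) and 4 genes of the Y chromosome (8607), as did 3m (437 and 1536), 24m (335 and 2180) and f3m, from a female (1300 and 522), so these genes did not settle the sex of these libraries, and pooling of mice or mixing of libraries was not tested. Levels in CPM are compared between cells and not between genes.

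Nos3 was the most sharply endothelial member. In ECs its level was 413 CPM in 3m, 308 in f3m, 285 in 20m, 227 in 24m, 368 in f28m and 482 in m27mo. In SMCs it had 0 counts in 3m, f3m and 20m, 7 counts in f28m (1.15 CPM) and 25 in m27mo (1.12 CPM). The EC level was 320-fold the SMC level in f28m (95% counting interval 155 to 797) and 429-fold in m27mo (287 to 669). With 0 counts in SMCs, the interval began at 33.9-fold in 20m, 1.89-fold in 3m and 1.48-fold in f3m. A floor of 3 counts in place of 0 gave 41.9-fold in 20m. After thinning each cell to 500 UMIs, from 9.0% to 18.6% of ECs held a Nos3 UMI, against 0% of B cells, which should lack it, in each of 5 libraries (0 of 1209 in 3m, which allows a share of up to 0.248%). Median depth was 651 UMIs in ECs and 783 in B cells of 3m. Barcodes of at most 100 UMIs, which hold mostly free RNA, had 10.9 to 54.5 CPM.

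**Figure D1:**
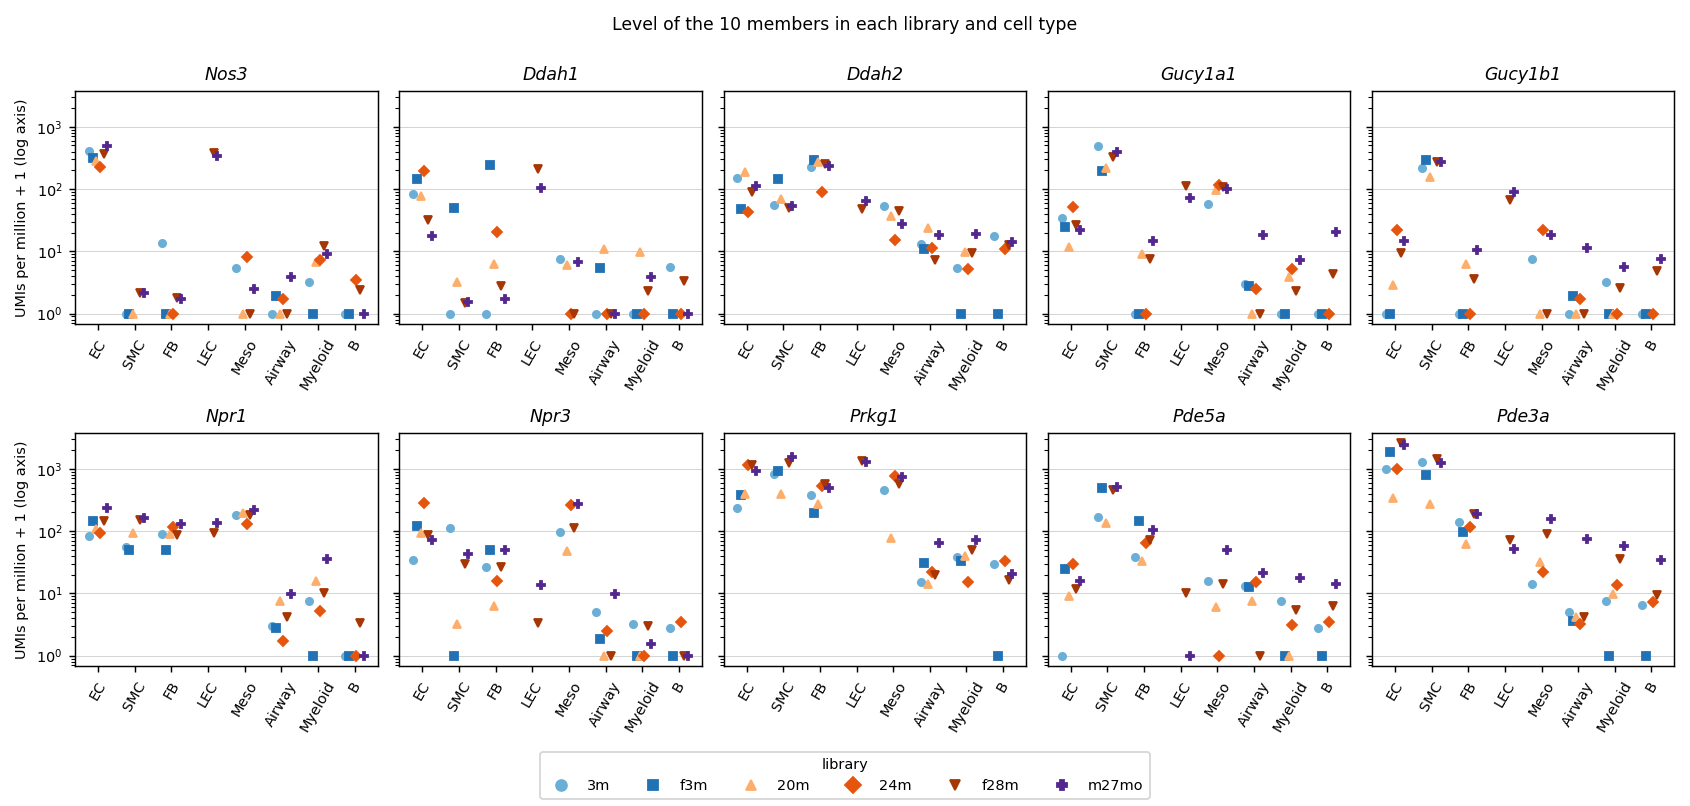
Each panel plots 1 member, with cell types on the x axis (EC, endothelial; SMC, smooth muscle; FB, fibroblast; LEC, lymphatic endothelial; Meso, mesothelial; airway epithelial, myeloid and B cells) and the level plus 1 in CPM on a log axis, 1 point per library of at least 10 cells. Nos3 sits between 227 and 482 in ECs and at or below 1.15 in SMCs, and Gucy1b1 sits between 154 and 293 in SMCs and at or below 21.3 in ECs.

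Ddah1, which breaks down methylated arginines that inhibit the synthase, and its paralogue Ddah2 were both found in ECs, and Ddah2 was also found in SMCs and FBs. Ddah1 in ECs was 82.6 CPM in 3m, 142 in f3m, 77.4 in 20m, 192 in 24m, 30.99 in f28m and 16.7 in m27mo. With all UMIs counted, few ECs held a Ddah1 UMI, from 3.45% in 3m to 6.64% in f28m. In 20m its 125 counts lay in 27 of 648 ECs. Among lymphatic endothelial cells the share was 44.6% in f28m and 36.0% in m27mo. Barcodes of at most 100 UMIs had from 1.05 CPM in m27mo to 53.2 in 3m, and the part of free RNA was not tested. In SMCs it had 0, 1, 1, 3 and 12 counts in 3m, f3m, 20m, f28m and m27mo. The EC level was above the SMC level in 5 of 5 libraries. It was 62.8-fold the SMC level in f28m (95% counting interval 20.8 to 311), 34.1-fold in 20m (6.02 to 1359) and 31.0005-fold in m27mo (13.95 to 71.1), but 2.91-fold in f3m (0.354 to 134), and 3m had 5 counts in ECs against 0 in SMCs, too few for a bound above 1. The 2 deepest libraries had the lowest endothelial levels of Ddah1. Ddah2 was spread over all 3 types, with 42.6 to 190 CPM in ECs, 48.5 to 147 in SMCs and 88.5 to 287 in FBs. The FB level of Ddah2 was above the SMC level in 5 of 5 libraries.

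Both subunits of soluble guanylate cyclase were found in SMCs. Gucy1a1 in SMCs was 495 CPM in 3m, 195 in f3m, 213 in 20m, 326 in f28m and 389 in m27mo, resting on 9, 4, 94, 1984 and 8656 counts. Gucy1b1 was 220, 293, 154, 272 and 269 CPM in the same order, resting on 4, 6, 68, 1653 and 5990 counts. In ECs, Gucy1a1 was between 10.5 and 49.7 CPM and Gucy1b1 between 0 and 21.3 CPM, and neither overlapped the SMC range. The SMC level of Gucy1a1 was 12.8-fold the EC level in f28m (10.1 to 16.5) and 18.8-fold in m27mo (12.3 to 30.4), and that of Gucy1b1 was 32.0-fold (21.3 to 50.7) and 19.6-fold (11.6 to 35.8). SMC markers in the sums of ECs stood at 16.5 to 548 CPM, against 31249 to 57825 in SMCs, and the part of such RNA in the endothelial counts of both subunits was not tested. With all UMIs counted, Gucy1a1 was held by 78.2% of SMCs in f28m and 89.1% in m27mo, and Gucy1b1 by 78.5% and 86.5%. A UMI of both subunits was held by 63.2% in f28m and 78.8% in m27mo, and whether this exceeds separate detection was not tested. Thinned to 500 UMIs the shares with both were 1.13% and 1.959%, and in 20m they were 18.0% with all UMIs and 0% thinned, so the shares follow depth.

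Chromosome 3 of the mouse genome holds 5 of the members, both subunit genes among them. RefSeq promoter sequences on GRCm38.p6 were at hand for 8 of the 10 members, Nos3 and Pde3a being the exceptions, and gave 10 windows of the 250 bases before a start site. For each of the 3 members called lower in ECs than in SMCs 1 window is shown, 5′ to 3′ on the strand of the gene. The GC box (GGGCGG or CCGCCC) is in capitals. The windows are Gucy1a1 (chr3:82145651-82145900, minus strand, the upstream of 2 annotated starts), Gucy1b1 (chr3:82074712-82074961, minus strand) and Pde5a (chr3:122728908-122729157, plus strand). The other window of Gucy1a1 (chr3:82145074-82145323) held 0 GC boxes and is not shown.
Gucy1a1: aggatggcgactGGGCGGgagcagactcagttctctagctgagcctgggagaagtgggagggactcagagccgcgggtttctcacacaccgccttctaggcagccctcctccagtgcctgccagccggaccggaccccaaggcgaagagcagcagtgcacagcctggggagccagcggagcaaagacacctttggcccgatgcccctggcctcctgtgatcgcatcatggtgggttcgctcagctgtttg
Gucy1b1: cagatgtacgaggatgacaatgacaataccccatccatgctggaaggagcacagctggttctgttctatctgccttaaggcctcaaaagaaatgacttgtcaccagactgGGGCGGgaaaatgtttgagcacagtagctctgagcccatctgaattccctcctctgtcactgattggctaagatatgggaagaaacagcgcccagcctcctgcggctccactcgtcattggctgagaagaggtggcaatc
Pde5a: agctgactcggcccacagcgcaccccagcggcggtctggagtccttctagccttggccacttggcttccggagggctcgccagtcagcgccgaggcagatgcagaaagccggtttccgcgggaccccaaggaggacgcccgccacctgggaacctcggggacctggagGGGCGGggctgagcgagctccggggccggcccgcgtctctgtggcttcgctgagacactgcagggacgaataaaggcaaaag
A GC box on either strand was present in 7 of the 10 windows of members and in 32.7% of all 32851 windows in the table. The CArG box, the site of serum response factor in many muscle genes, matched in 0 of the 10 windows and in 1.47% of all, and TATAAA on either strand matched in 0 and in 12.4%. A CCAAT box on either strand (CCAAT or ATTGG) was found in 4 of the 10 windows, with 2 matches in that of Gucy1b1, and in 33.8% of all windows. The GC content of the windows shown was 64.0% for Gucy1a1, 51.2% for Gucy1b1 and 68.4% for Pde5a.

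The natriuretic peptide receptors did not follow the division of the cyclase. Npr1, the guanylate cyclase receptor, was 82.6 CPM in 3m, 142 in f3m, 107 in 20m, 92.2 in 24m, 142 in f28m and 236 in m27mo in ECs. In SMCs it was 55.0, 48.8, 92.9, 147 and 161 CPM in 3m, f3m, 20m, f28m and m27mo, with 1 count in each of the young libraries. In FBs it ran from 47.8 to 131 CPM, so the ranges of the 3 types overlapped. Npr3, the clearance receptor, ran from 33.0 to 284 CPM in ECs, from 0 to 110 in SMCs and from 5.30 to 48.8 in FBs. It was higher in ECs than in SMCs in 4 of 5 libraries, the exception being 3m with 2 counts in each type.

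Prkg1, the kinase that cyclic GMP activates, was present in ECs, SMCs and FBs. In SMCs it was 825 CPM in 3m, 928 in f3m, 394 in 20m, 1244 in f28m and 1535 in m27mo, and in ECs it was 231, 380, 387, 1153 and 925 CPM in the same libraries and 1142 in 24m. The SMC level was the higher one in 5 of 5 libraries, by 3.57-fold in 3m (1.61 to 7.97) but by only 1.02-fold in 20m (0.857 to 1.21). The level of Prkg1 in barcodes of at most 100 UMIs was 471 CPM in 3m and 283 in f3m, against 231 and 380 CPM in the ECs of these libraries, while the B cells of 3m had 29.0 CPM. The part of free RNA in the endothelial values was not tested.

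The phosphodiesterases differed in their place. Pde5a, which breaks down cyclic GMP, was 165 CPM in 3m, 488 in f3m, 134 in 20m, 457 in f28m and 513 in m27mo in SMCs, and between 0 and 28.4 CPM in ECs. FBs were between them, with 31.8 to 143 CPM. The SMC level of Pde5a was 42.7-fold the EC level in f28m (29.7 to 63.9) and 34.8-fold in m27mo (21.1 to 62.2). Pde3a, which breaks down cyclic AMP and is inhibited by cyclic GMP, was found in both. In ECs it was 1008 CPM in 3m, 1827 in f3m, 343 in 20m, 986 in 24m, 2562 in f28m and 2377 in m27mo. In SMCs it was 1265, 781, 267, 1442 and 1224 CPM in 3m, f3m, 20m, f28m and m27mo, and in FBs it stayed between 60.96 and 190 CPM. The 20m library had the lowest level of Pde3a in all 3 types and the lowest level of Prkg1 in SMCs.

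The cell types were compared in 1 edgeR quasi-likelihood model over 15 sums of counts from the 5 libraries with at least 10 cells of each type, with the library as a block and Benjamini-Hochberg adjustment over 10568 genes. The members had been kept out of the genes that defined the types. Between ECs and SMCs 8 of the 10 members passed an adjusted p of 0.05, where 41.2% of all genes tested did. Of these, 5 were higher in ECs (21.1% of all genes) and 3 lower (20.1%), and the median log2 fold change was 0.45 over the members and 0.03 over all genes. Nos3 was higher in ECs by 8.43 on the log2 scale (SE 0.38, adjusted p = 3.36e-21), Ddah1 by 4.84 (SE 0.48, adjusted p = 2.11e-09) and Npr3 by 1.54 (SE 0.43, adjusted p = 0.0118). The excess of Npr3 did not hold in every group of ECs, as given below. Genes entered the test with a UMI in more than 5% of the cells of 3 or more sums, which Nos3 and Ddah1 reached in ECs alone. For Ddah1 these were 5.08% in f3m, 6.64% in f28m and 5.10% in m27mo, against 3.45% or less in SMCs and FBs. The calls of Nos3 and Ddah1 thus rest on a filter that only the higher type passed. So do those of Gucy1a1 and Gucy1b1, given below. The members were also chosen with earlier results of these data known, so nothing is read from the count of 8 of 10. The endothelial excess was smaller for Ddah2, at 0.96 (SE 0.25, adjusted p = 0.00199), and Pde3a, at 0.72 (SE 0.23, adjusted p = 0.00992). The edgeR adjusted p of Ddah2 was 0.0741 without m27mo and 0.137 without the library block. That of Pde3a was 0.0676, 0.0621 and 0.111 without f3m, f28m and m27mo, and 0.337 without the block.

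Lower in ECs than in SMCs were Gucy1a1, at -4.05 (SE 0.28, adjusted p = 7.60e-16), Gucy1b1, at -5.11 (SE 0.33, adjusted p = 8.88e-17), and Pde5a, at -5.01 (SE 0.31, adjusted p = 2.58e-17). All 3 kept their call in each of the 16 alternative settings. Gucy1a1 and Gucy1b1 passed the filter within SMCs but not within ECs or FBs. The difference in Prkg1 was -0.58 (SE 0.25, adjusted p = 0.0529), and edgeR or DESeq2 gave adjusted p values from 0.0202 to 0.505 over the 16 alternatives, of which 9 were under 0.05. Npr1 did not differ detectably between ECs and SMCs (0.18, 95% interval -0.28 to 0.65, adjusted p = 0.575).

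**Figure D2:**
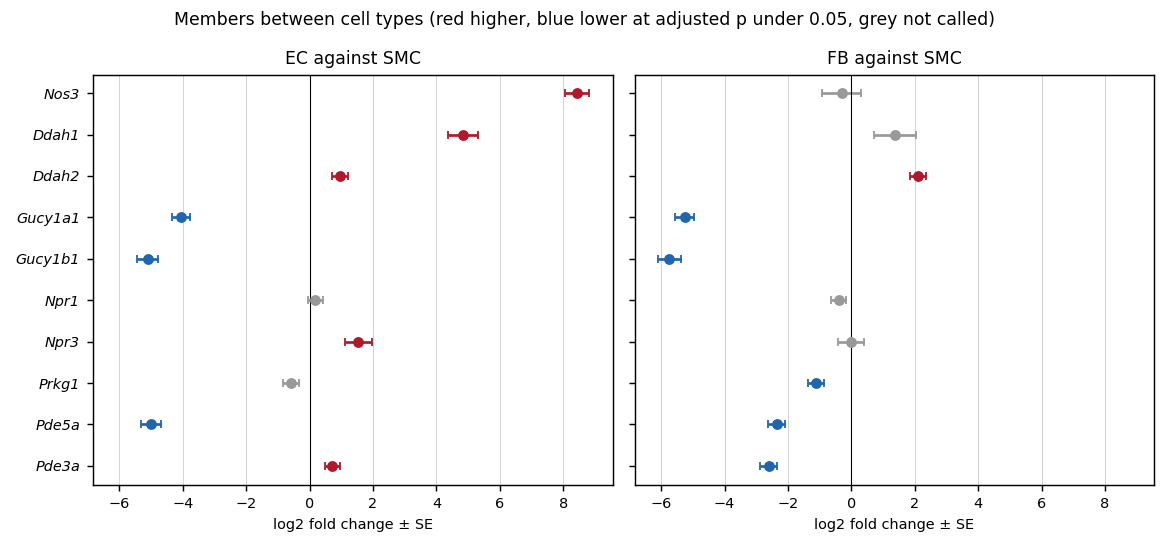
The x axis gives the log2 fold change of each member with its SE from the edgeR model, for ECs against SMCs on the left and FBs against SMCs on the right. Nos3 lies at 8.43 in ECs, while Gucy1a1, Gucy1b1 and Pde5a lie between -5.11 and -4.05 in ECs and between -5.74 and -2.36 in FBs.

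In FBs against SMCs, 6 of the 10 members passed the test, where 34% of all genes did, with 1 higher (18.4% of all genes) and 5 lower (15.6%). Gucy1a1 was lower in FBs than in SMCs by -5.27 (SE 0.31, adjusted p = 1.78e-17) on the log2 scale and Gucy1b1 by -5.74 (SE 0.36, adjusted p = 6.29e-17). Both entered the test through SMCs alone, so these calls rest on a filter that only the higher type passed. For the same reasons as in ECs, nothing is read from the count of 6 of 10. The phosphodiesterases were lower as well, Pde5a at -2.36 (SE 0.26, adjusted p = 6.55e-10) and Pde3a at -2.61 (SE 0.26, adjusted p = 6.61e-11). Prkg1 was lower by -1.11 (SE 0.26, adjusted p = 0.000612), a call lost without the block (adjusted p = 0.107). Ddah2 was the member higher in FBs, at 2.11 (SE 0.25, adjusted p = 4.68e-09). Npr1 (-0.41, 95% interval -0.89 to 0.08), Npr3 (0.00, -0.81 to 0.81), Ddah1 (1.38, 0.07 to 2.69) and Nos3 (-0.31, -1.50 to 0.89) did not pass the adjusted threshold. The adjusted p of Npr1 was 0.0282 with cells of 1000 UMIs or more and 0.0446 in old libraries alone, and 0.0778 or more in the other 14 alternatives.

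A wider list of 60 genes of the pathway, written with earlier results of these data known, was set beside the members, and 44 of them were tested. In ECs against SMCs 9 were higher and 17 lower, where 21.1% and 20.1% of all genes were, so that the share of higher genes was near that of all genes, and the median of their log2 fold changes was -0.33, that of all genes being 0.03. The kinase targets and calcium effectors made up most of the lower ones, with 10 of 12 tested lower in ECs and 0 higher, and 11 of 12 lower in FBs, where 15.6% of all genes were lower. By the rule of the largest change without overlap between libraries, 4 of them are named for ECs. Kcnmb1, the accessory subunit of the calcium-activated potassium channel, had 55.0 to 342 CPM in SMCs and 0 to 1.97 in ECs (-8.26, SE 0.45, adjusted p = 6.82e-19). Kcnma1, the pore of the same channel, had 118 to 697 against 0 to 16.5 CPM (-6.36, SE 0.92, adjusted p = 0.000418). Irag1, the substrate through which the kinase restrains calcium release, had 97.7 to 412 against 0 to 4.91 CPM (-7.06, SE 0.35, adjusted p = 3.67e-20). Hspb6, a small heat shock protein and kinase target, had 55.0 to 342 against 0 to 2.95 CPM (-6.22, SE 0.33, adjusted p = 2.14e-19). These 4, and Pln and Rgs2 of the same group, passed the filter within SMCs but not within ECs or FBs. Their calls, and that part of the count of lower genes, thus rest on a filter that only the higher type passed. In FBs the same rule gave Kcnmb1, Mylk, Hspb6 and Irag1, all lower than in SMCs, with Mylk, the myosin light chain kinase, at 0 to 35.2 CPM in FBs and 487 to 1577 in SMCs (-6.17, SE 0.37, adjusted p = 5.49e-16). Mylk passed the filter within ECs and SMCs but not within FBs.

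Of 9 tested genes for cofactor and arginine supply, 3 were higher in ECs than in SMCs and 0 were lower, where 21.1% of all genes were higher, and nothing is read from this count. They were Gch1, which starts the synthesis of the cofactor tetrahydrobiopterin (3.84, SE 0.30, adjusted p = 6.63e-14), Ass1, which recycles citrulline towards arginine (3.19, SE 0.27, adjusted p = 2.36e-13), and Slc7a1, an arginine carrier (1.10, SE 0.28, adjusted p = 0.00232). Among 9 synthases and partners, Cav1 (1.06, SE 0.24, adjusted p = 0.000406) and Nos1ap were higher and Calm2 and Calm3 lower in ECs. Of 7 phosphodiesterases and exporters, Pde3b, Abcc4 and Pde1c were higher in ECs and Pde1a and Pde10a lower. Of 7 cyclases, peptides and receptors, Cd47 was higher and Corin, Cyb5r3 and Gucy1a2 were lower. The genes of this paragraph were named after their values were seen. Gch1, Ass1 and Pde1c passed the filter within ECs but not within SMCs or FBs, and Corin within SMCs alone.

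**Figure D3:**
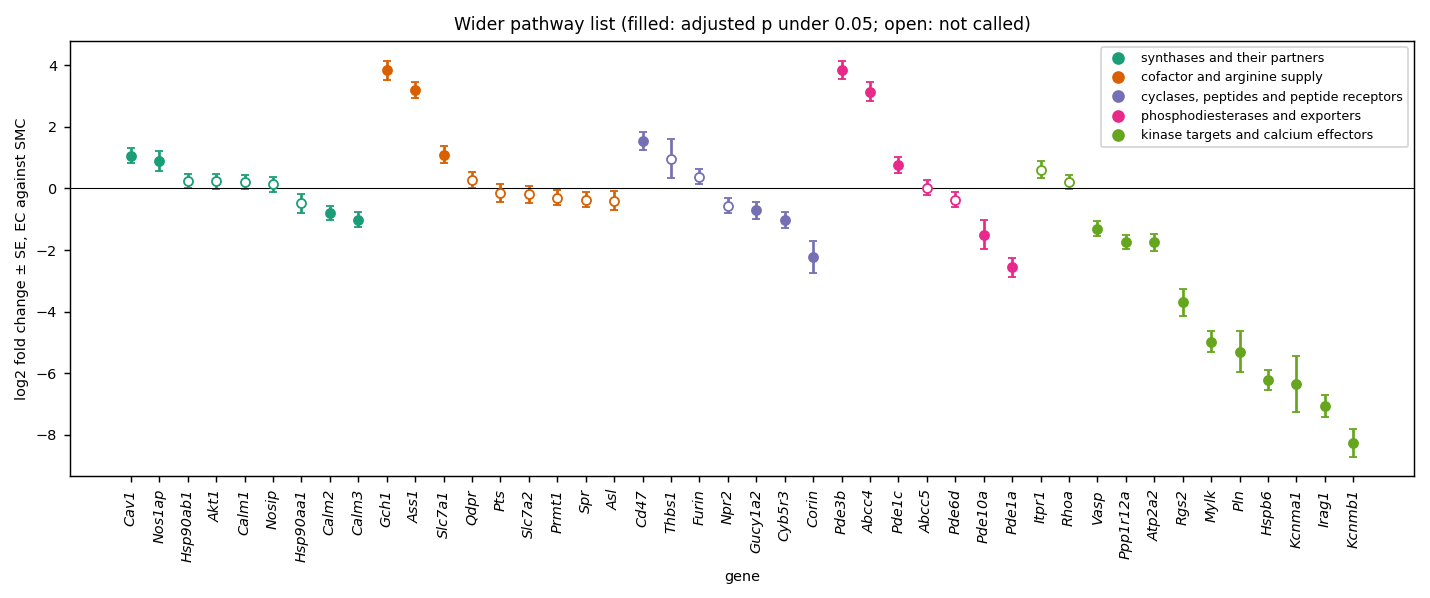
Each point is 1 of the 44 tested genes of the wider list, placed along the x axis and coloured by its group, filled where called, and the log2 fold change of ECs against SMCs with its SE on the y axis. The kinase targets and calcium effectors reach -8.26 for Kcnmb1, and Gch1 and Pde3b stand highest at 3.84 and 3.85.

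Among ECs the members were uneven. Sub-clusters were made without the members or the wider list. A sub-cluster led by the SMC markers Acta2 and Myh11 (76 and 43 cells in f28m and m27mo) mixed classes and was left out of the ECs. Of the rest, 3 held at least 20 cells in both f28m and m27mo. One was led by Mdga2, Arhgap24 and Eln (413 and 177 cells in f28m and m27mo), one by Gpihbp1, Fabp4 and Cd36 (175 and 27 cells) and one by Epha7, Fgf14 and Tbx20 (130 and 46 cells). The leading genes of the Epha7 cells also held Dcn, an FB marker, and the part of this in their levels was not tested. Nos3 was 427 and 545 CPM in the Mdga2 and Eln cells, 178 and 215 in the Gpihbp1 cells and 365 and 355 in the Epha7 cells, in f28m and m27mo in turn. Pde3a was lowest in the Gpihbp1 cells, with 3556 and 2713 CPM, 89.0 and 56.6 CPM, and 2004 and 2166.3 CPM in the same order. Prkg1 was lowest in the Gpihbp1 cells too, at 138 and 226 CPM, against 1157 and 903 in the Mdga2 and Eln cells and 1785 and 1409 in the Epha7 cells. Npr3 went another way. It was 0.646 and 2.66 CPM (1 and 2 counts) in the Mdga2 and Eln cells, 49.0 and 56.6 in the Gpihbp1 cells and 308 and 379 in the Epha7 cells. SMCs of f28m and m27mo had 29.1 and 41.3 CPM of Npr3. That was above the Mdga2 and Eln cells, the largest of these sub-clusters, and below the Gpihbp1 and Epha7 cells. Npr1 was between 114 and 249 CPM in the 3, and its counting intervals overlapped between the sub-clusters within each library. These are values of 2 libraries without a test, and the intervals in the plot cover counting error only. In 20m, most ECs lay in 2 other sub-clusters, led by Cxcl2 (527 cells) and by Rasef and Ccl2 (110 cells), where Prkg1 was 193 and 1003 CPM and Npr3 50.8 and 233 CPM. Prox1, a lymphatic endothelial marker, was also among the leading genes of the Rasef and Ccl2 cells.

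**Figure D4:**
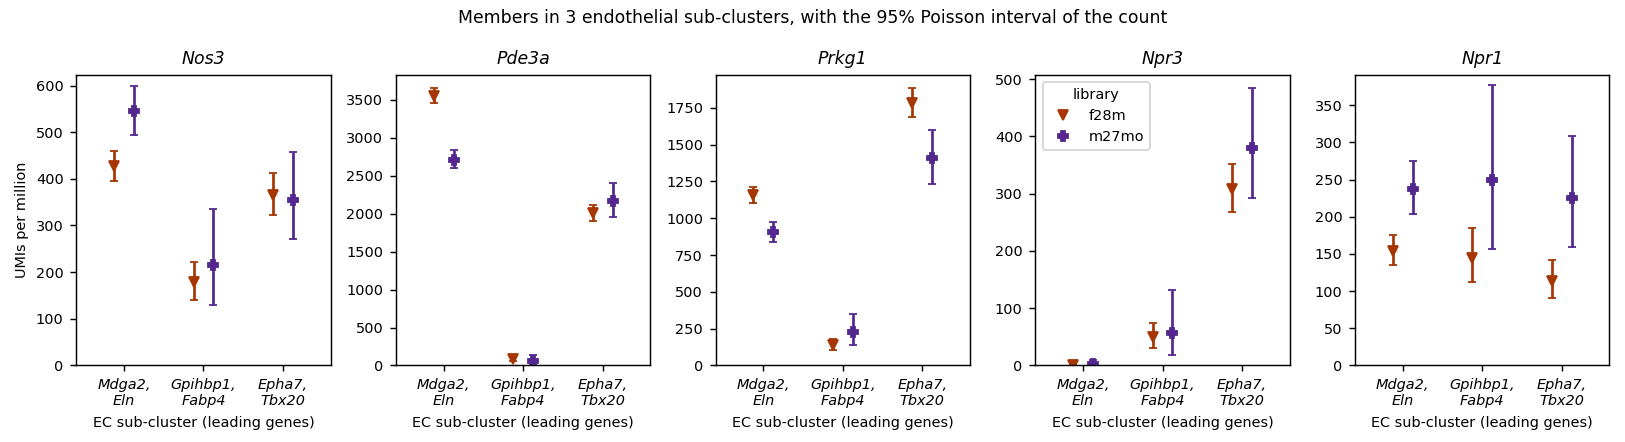
The x axis gives 3 endothelial sub-clusters by their leading genes and the y axis the level in CPM, 1 point per library (f28m and m27mo), with bars for the 95% Poisson interval of the count. Pde3a and Prkg1 are lowest in the Gpihbp1 and Fabp4 cells, and Npr3 is highest in the Epha7 and Tbx20 cells at 308 and 379.

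SMCs of m27mo also differed among themselves. Cells led by Atf3, Rgs5 and Thbs1 (1346 cells) had 277 CPM of Gucy1a1 (95% Poisson interval 269 to 287) and 204 of Npr1 (196 to 212). Cells led by Col14a1, Hand2 and Corin (687 cells) had 572 CPM of Gucy1a1 (556 to 590) and 86.1 of Npr1 (79.6 to 92.9). Pde5a, at 496 (484 to 509) and 546 CPM (529 to 563), and Gucy1b1, at 242 (233 to 250.3) and 311 CPM (298 to 324), were also higher in the latter, and the intervals did not overlap. Egr1, Btg2 and Ier2 were also among the leading genes of the Atf3 cells. Those of the Col14a1 cells also held Tbx20 and Tnnt2, the last being a cardiac muscle marker. Another sub-cluster, led by Peak1, Gm10801 and Nrxn3 (190 cells), had 447 CPM of Gucy1a1 and 172 of Npr1. In FBs of m27mo a small sub-cluster led by Aqp1, Col23a1 and Robo2 (40 cells) had 379 CPM of Pde5a (300.4 to 473), against 42.5 to 82.9 CPM in the other FB sub-clusters of that library. All of this rests on 1 library.

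Outside the artery's 3 main types part of the axis was found in lymphatic endothelial and mesothelial cells. Summed over libraries, lymphatic endothelial cells held only 4 counts of Pde5a and 3 of Npr3. Mesothelial cells held only 4 counts of Nos3 and 8 of Ddah1 (1.60 and 3.19 CPM). Lymphatic endothelial cells, 65 in f28m and 25 in m27mo, had 373 and 342 CPM of Nos3. They also held the cyclase subunits, with 111 and 69.6 CPM of Gucy1a1 (25.5 and 20.6 in blood ECs of the same libraries) and 66.8 and 88.6 CPM of Gucy1b1 (8.49 and 13.8). Their Prkg1 was 1333 and 1304 CPM, their Ddah1 was 205 and 101 CPM, and their Pde3a was 71.4 and 50.6 CPM against 2562 and 2377 in blood ECs of the same libraries. Mesothelial cells had Gucy1a1 in each of 5 libraries, at 56.0 to 114 CPM, with Gucy1b1 at 0 to 21.3 CPM. They also had 128 to 219 CPM of Npr1 and 46.0 to 275 CPM of Npr3, against 82.6 to 236 and 33.0 to 284 CPM in ECs. B cells, airway epithelial and myeloid cells held 72.4 CPM or less of each member in every library. T, NK or innate lymphoid cells held more of some members in single libraries, with 239 CPM of Pde3a, 139 of Prkg1 and 51.9 of Nos3 in f28m (95 cells) and 167 of Pde5a in m27mo (41 cells).

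The patterns of single members over the 9 types had close likenesses. Pearson's r of log2(CPM + 10) was computed over the types among 17667 genes with at least 50 counts, as a description. Nos3 was most like Rasip1 (r = 0.998), She (0.997) and Mmrn2 (0.997). Gucy1a1 was most like Smtn (0.974), 1 of the SMC markers, Lrtm2 and Nkd1, and Gucy1b1 was most like Gm10687 (0.987). Pde5a was most like Kcns3 (0.984) and Ntrk3 (0.970), and Npr3 most like Hand2 (0.976). Ddah1 was most like Rbp7 (0.997), Btnl9 and Pcdh12, Ddah2 like Oaf (0.963), Hcfc2 and Spin4, Npr1 like Limch1 (0.981), Prkg1 like Actr8 (0.978) and Pde3a like Stk11 (0.953). The 9 points share libraries and depth.

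The question of age was asked in each type. No member passed an adjusted p of 0.05 between old and young libraries in ECs (7 tested), SMCs (8) or FBs (5), by edgeR or by DESeq2. The share of all genes called was 0% in ECs and SMCs and 0.0445% in FBs (0.0148% higher and 0.0297% lower). Before adjustment, edgeR put 346 of 6011 genes in ECs, 548 of 7443 in SMCs and 417 of 6740 in FBs under a p of 0.05. DESeq2 called 0, 2 and 2 genes in the same order. Young ECs lay almost wholly in 1 sub-cluster led by Gm10800 and Ntrk2 that 24m shared (84 of 87, 54 of 59 and 176 of 200 cells). Of the young SMCs, 18 of 19 and 28 of 29 lay in the sub-cluster led by Peak1, Gm10801 and Nrxn3. It held 190 cells of m27mo and none of f28m or 20m, so old and young SMCs came mostly from different sub-clusters. The old library 24m shared barcodes with the young ones and had their depth in ECs, with medians of 646 UMIs a cell against 624 and 651, and airway markers in ECs overlapped between the ages (973 to 1140 CPM in young, 61.2 to 1476 in old). In SMCs, where 24m held 1 cell and did not enter, depth and airway markers separated the ages. Airway epithelial markers summed to 220 and 1123 CPM in young SMCs and 39.5 to 138 CPM in old ones, and the part of these in the age results was not tested. In SMCs the library set cannot be told apart from age, since 24m gave no sum. The naming of SMCs differed between libraries as well. Cells named cell by cell were 18 of 19 in 3m, 28 of 29 in f3m and 131 of 133 in 20m. They were 21 of 882 in f28m and 7 of 2246 in m27mo. In 3m and f3m they came from a cluster where 6 of 7 cardiac muscle markers were raised. The part of this in the age results was not tested.

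Nos3 in ECs was 308 and 413 CPM in the young libraries and 227 to 482 CPM in the old ones, and the groups overlapped (log2 fold change -0.09, 95% interval -1.01 to 0.82, edgeR adjusted p = 0.999). Prkg1 was the tested member of ECs whose groups did not overlap, at 231 and 380 CPM against 387 to 1153 CPM, higher in 4 of 4 old libraries. It was 1 of 7 members tested, where 11.9% of all genes tested had every old library above both young ones, and the nearest values, 380 CPM in f3m (16 counts) and 387 in 20m, were close. Its edgeR log2 fold change was 1.57 (SE 0.59, unadjusted p = 0.0199, adjusted p = 0.846), while the median of all genes was 0.14. Npr3 (0.86, SE 0.83), Npr1 (0.40, SE 0.56), Ddah2 (0.14, SE 0.70), Pde3a (0.11, SE 0.68) and Ddah1 (-0.61, SE 1.12) had overlapping groups. Gucy1b1, which was too sparse in ECs to be tested, had 0 counts in both young libraries, whose 95% Poisson intervals reach 60.9 and 87.5 CPM, and 1.86 to 21.3 CPM in the old ones, so no difference was detectable at this depth.

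In SMCs the cyclase subunits overlapped between the ages. Gucy1a1 was 195 and 495 CPM in young and 213 to 389 CPM in old SMCs (log2 fold change 0.37, 95% interval -0.89 to 1.62), and Gucy1b1 was 220 and 293 against 154 to 272 CPM (0.34, -0.91 to 1.58). Both values turned to -0.13 and -0.15 with library totals in place of TMM scaling, a scaling that moved the median of all genes from 0.59 to 0.10. Pde5a, at 0.59 (-0.83 to 2.01), and Prkg1, at 0.71 (-0.58 to 2.01), were near that median. Of the 8 members tested in SMCs, Npr1 was the 1 whose groups did not overlap, where 23.7% of all genes tested had every old library above both young ones. Its levels were 48.8 and 55.0 CPM in young and 92.9 to 161 CPM in old libraries (1.87, SE 0.87, unadjusted p = 0.0484, edgeR adjusted p = 0.634). Its young values were 1 count each, with Poisson intervals of 1.24 to 272 and 1.39 to 306 CPM, so the difference was not detectable at this depth. In FBs the fold changes of the 5 members tested ran from -0.17 for Ddah2 to 0.63 for Prkg1, with adjusted p values of at least 0.862 by edgeR.

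**Figure D5:**
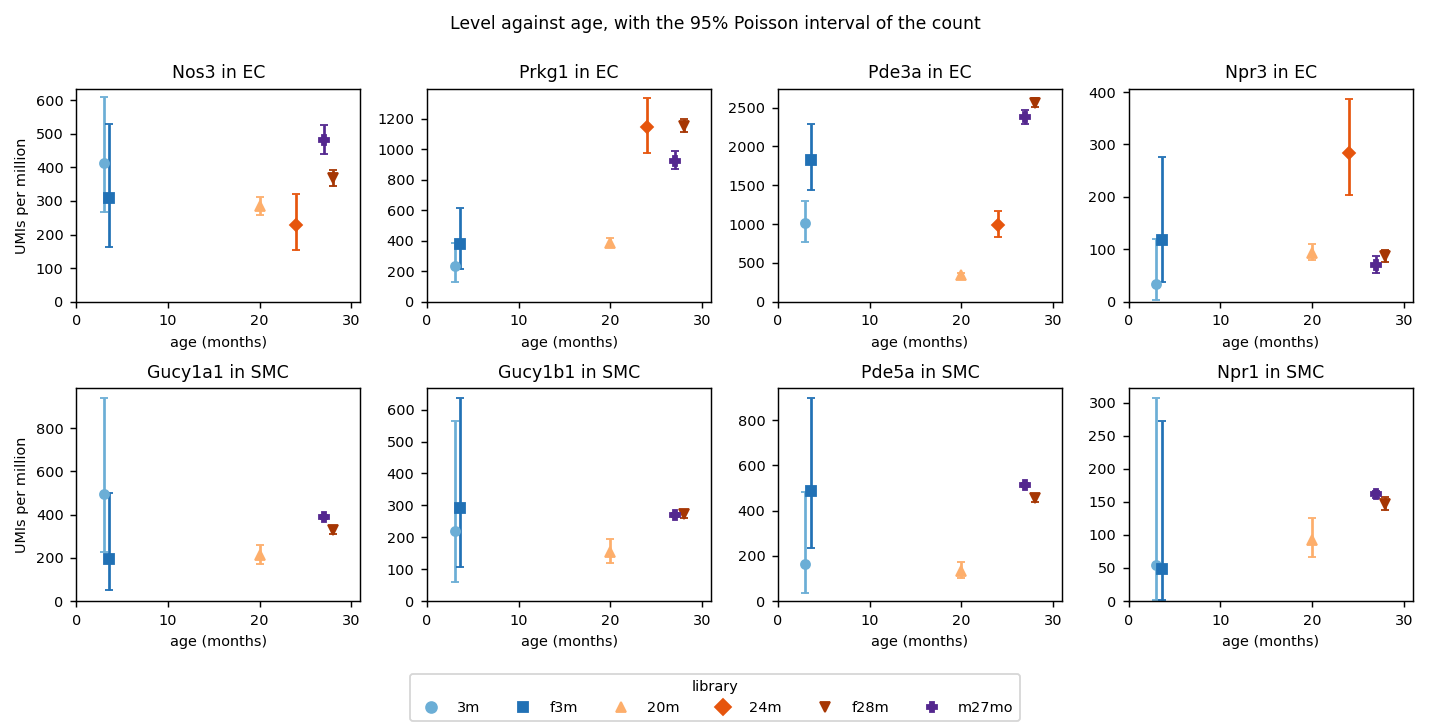
The x axis gives the age in months (f3m is drawn slightly to the right of 3m) and the y axis the level in CPM, 1 point per library with bars for the 95% Poisson interval of the count. Prkg1 in ECs is at 231 and 380 in the young libraries and at 387 to 1153 in the old ones, and the intervals of the young SMC points are wide.

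The difference between ECs and SMCs was also compared between the ages by an interaction in the model with the library as a block. No member passed, with 0% of 10568 genes called by edgeR, 696 genes at an unadjusted p under 0.05 and 5 genes called by DESeq2. Prkg1 gave 0.64 (95% interval -0.39 to 1.66), Pde3a -0.33 (-1.23 to 0.57) and Gucy1a1 -1.03 (-2.99 to 0.93) on the log2 scale, where the median over all genes was -0.66. These intervals span changes of several-fold. That of Gucy1a1 rests on 2 and 1 counts in the ECs of 3m and f3m. For Nos3, Gucy1b1, Ddah1, Pde5a and Npr1 each young library held 0 or 1 counts in ECs or in SMCs, and nothing is read from their fitted values.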

How the data were processed

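Single cells of the proximal PA of 6 mice were sequenced by the authors with 10x 3′ chemistry after digestion with collagenase and elastase, trimmed with Cutadapt and counted with STARsolo against GRCm38, per the labels and the study's methods. The deposited values are raw UMI counts per gene and barcode. From them, barcodes that reached 500 UMIs and 300 genes and stayed within 20% mitochondrial UMIs were clustered (scanpy 1.11.5) without the members or the wider list. Clusters were named by marker genes under a rule set after the clusters were seen. Where SMC markers were raised but none led, SMCs were named cell by cell. They needed 10 or more SMC marker UMIs and over 3 times those of any other class but pericytes. They also had to reach a set share of the median depth of their library. That left out 46 cells in f28m, 102 in m27mo, 2 in 20m and 0 in 3m and f3m. The rule gave 18 of 19 SMCs in 3m, 28 of 29 in f3m and 131 of 133 in 20m. It gave 21 of 882 in f28m and 7 of 2246 in m27mo. Those of 3m and f3m came from a cluster where 6 of 7 cardiac muscle markers were raised. The part of this in the SMC results was not tested. Doublets (213 barcodes), cells that mixed classes and clusters without a name were left out, as were library and type pairs under 10 cells. Counts were summed per library and type. Genes counted in more than 5% of the cells of 3 or more sums entered the test with edgeR 4.0.16 (TMM, quasi-likelihood, Benjamini-Hochberg) in R 4.3.3. In the age fits the sums were of 1 type. In the other fits they were of all 3 types, so a gene could enter through 1 type alone. DESeq2 1.42.0, other scalings, filters, thinning and leaving out libraries were the alternatives. The edgeR fits were run on simulated counts of genes that had passed the filter. That run did not cover the naming of cells, free RNA or the filter. SE is the fold change over the square root of F. Intervals of log2 fold changes come from this SE by a normal approximation, which is not the F test and can differ from it. All other intervals, and the floors, cover counting error only. The members and lists were chosen with earlier results of these data known. Named genes were the 10 members, up to 4 called genes of the wider list per cell type comparison with the largest change and no overlap, and the 3 genes most like each member.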

Additional observations from a re-analysis of the deposited data

Results flagged for a closer look

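Npr3 in the ECs of 24m stood apart from the other old libraries, at 284 CPM against 69.8 to 93.5 CPM in the other 3. The gap to the nearest library was 0.889 of the range of the group, above the critical value of Dixon's test for 4 samples. Of 18 groups tested in this way 1 was marked, and chance marks about 1 in 20.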

How the results depend on the processing

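No paired analysis was possible because the labels give no replicate numbers that young and old mice share. Of the 14 differences of members called between cell types, 11 were called in every alternative in which they were tested (8 of 16 for Ddah1, which did not pass the filter on low counts in the others, 15 for Npr3 and 16 for the remaining 9), and the others are given with their results. In the main fits the calls of Nos3, Ddah1, Gucy1a1 and Gucy1b1 rest on a filter that only the higher type passed. Of 20 age results of members and 10 interaction results, 0 were called in any alternative. Genes called between ECs and SMCs fell from 4357 to 1661 with thinning and 2080 without the library block, and leaving out 1 library gave 2543 (without f28m) to 4454, with 2697 without m27mo. Between FBs and SMCs they fell from 3595 to 1344 and 1686, and leaving out 1 library gave 1989 (without f28m) to 3979, with 2035 without m27mo. The age count in ECs was 6 without a gene filter. In SMCs it was 1 with library totals, 1 with edgeR's own filter, 15 without a filter, 2 with DESeq2 and 0 to 4 with 1 library left out, 4 being without f28m or m27mo. In FBs it was 22 without a filter, 0 with edgeR's own filter, with cells of 1000 UMIs or more, with thinning or with the barcode-sharing set as a covariate, and 0 to 3 with 1 library left out. The interaction gave 4 genes without a filter, 5 with DESeq2, 2 thinned and 0 to 47 with 1 library left out, with 47 without 20m, 15 without f28m and 13 without m27mo. Fits of age in ECs and SMCs and of the interaction with cells of 1000 UMIs or more could not be run, as too few young cells were left. The log2 fold changes that turned in sign, none of them called, were as follows. With median-of-ratios size factors, FBs against SMCs gave Npr3 0.0802 and the interaction gave Pde3a 0.13. With library totals, age in SMCs gave Gucy1a1 -0.13, Gucy1b1 -0.15 and Pde3a -0.0532, FBs against SMCs gave Npr3 0.0522 and the interaction gave Pde3a 0.29. With edgeR's own filter, age in ECs gave Nos3 0.0763. Without a gene filter, age in ECs gave Nos3 0.26, age in SMCs gave Ddah2 0.23 and Npr3 0.15, age in FBs gave Ddah2 0.23, FBs against SMCs gave Npr3 0.0249 and the interaction gave Pde3a 0.0478. With DESeq2, FBs against SMCs gave Npr3 0.0809 and the interaction gave Nos3 3.30 and Pde3a 0.12. With cells thinned to 500 UMIs, age in SMCs gave Gucy1a1 -0.30, FBs against SMCs gave Nos3 0.18 and the interaction gave Pde5a 3.18. Without shared barcodes, FBs against SMCs gave Npr3 0.000935. With the barcode-sharing set as a covariate, age in ECs gave Ddah1 0.90, Ddah2 -1.18, Npr1 -0.15 and Pde3a -0.42. With cells of 1000 UMIs or more, age in FBs gave Ddah2 0.31, Npr1 -0.31, Prkg1 -0.0416 and Pde5a -0.46. Without the library block, FBs against SMCs gave Npr3 0.0422. With 1 library left out, age in ECs gave Nos3 -0.34 to 0.22, Pde3a -0.20 to 0.60, Ddah2 -0.44 to 1.34. With 1 library left out, age in SMCs gave Pde5a -0.0500 to 1.82, Ddah2 -0.96 to 0.74, Pde3a -0.0795 to 0.76. With 1 library left out, age in FBs gave Pde5a -0.82 to 0.76, Pde3a -0.0856 to 0.80, Ddah2 -0.26 to 0.10. With 1 library left out, ECs against SMCs gave Npr1 -0.00433 to 0.36. With 1 library left out, FBs against SMCs gave Npr3 -0.14 to 0.17. With 1 library left out, the interaction gave Npr3 -9.74 to 2.58, Ddah2 -1.15 to 2.29, Pde5a -1.05 to 6.26, Pde3a -0.94 to 0.22. The cause was not tested.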
